A study of Homo sapiens with 2 samples.

Results

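The SMAD and TGF-beta receptor genes were examined in a map of JARID2 on the chromatin of MDA-MB-231 cells, an established human line from a triple-negative breast tumour. They comprise the 8 SMAD genes (SMAD1 to SMAD7 and SMAD9) and the genes of both TGF-beta receptors, TGFBR1 and TGFBR2. The rule took each peak that the authors' annotated list gives to 1 of these 10 symbols, which was 14 of the 67071 peaks. The study has 2 libraries from untreated cells, JARID2 ChIP-seq with a polyclonal antibody and input DNA with no antibody. The series asks where JARID2 lies across the genome of these cells. Only the peak list of the ChIP library was used, so no value has a replicate. Tag count, fold enrichment over the peak caller's background and false discovery rate (FDR) are the authors' values for each peak. Intervals on tags are 95% Poisson intervals and intervals on shares are 95% exact Clopper-Pearson intervals, and both cover counting error only. The sources used here do not state how the input entered the peak calling, and the depth of the library is unknown.

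JARID2 is an accessory subunit of Polycomb repressive complex PRC2, which methylates histone H3 at lysine 27 and keeps developmental genes silent. TGF-beta ligands bind the type II receptor TGFBR2, which activates the type I receptor TGFBR1. That kinase phosphorylates SMAD2 and SMAD3, while receptors for bone morphogenetic proteins (BMPs) phosphorylate SMAD1, SMAD5 and SMAD9. Both kinds of SMAD enter the nucleus with the shared partner SMAD4, and the inhibitory SMAD6 and SMAD7 oppose them. In breast cancer the pathway is known for restraining growth of epithelial cells early and for driving invasion and epithelial-mesenchymal transition later.

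JARID2 peaks were listed at 9 of the 10 genes, most of them weak. A peak of any class was given to 56.3% of the 20037 protein-coding genes. A promoter peak, within 3 kb of a transcription start site (TSS), was found at 6 of the 10 genes, against 33.1% of protein-coding genes. All 6 were SMAD genes, namely SMAD1 to SMAD6, and neither receptor gene had one. Within 1 kb of a TSS there was a peak at SMAD2, SMAD3, SMAD4, SMAD5 and SMAD6, 5 of 10 genes against 22.3%. None of the 14 peaks reached an FDR of at most 5%, which 1.24% of all peaks did, and no promoter peak of the 10 genes reached it, against 2.47% of protein-coding genes with such a promoter peak. With 10 genes, these counts describe the list and are no test.

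Among the 14 peaks, promoters took 7, or 50% (interval 23 to 77.0), against 20.5% of all peaks. The other 7 were 3 distal intergenic, 2 intronic and 2 in 3′ untranslated regions (UTRs). Fold enrichment ranged from 4.48 to 12.37 with a median of 6.32, against a median of 5.95 over all peaks, and 10 of the 14 were above that median. Tags ranged from 9 to 26 with a median of 14.0, against 12 over all peaks. FDRs ran from 27.61% to 48.05%, and 8 of the 14 were above 40%. The SMAD2 promoter peak was the 1 peak with an FDR of at most 30%.

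**Figure D1:**
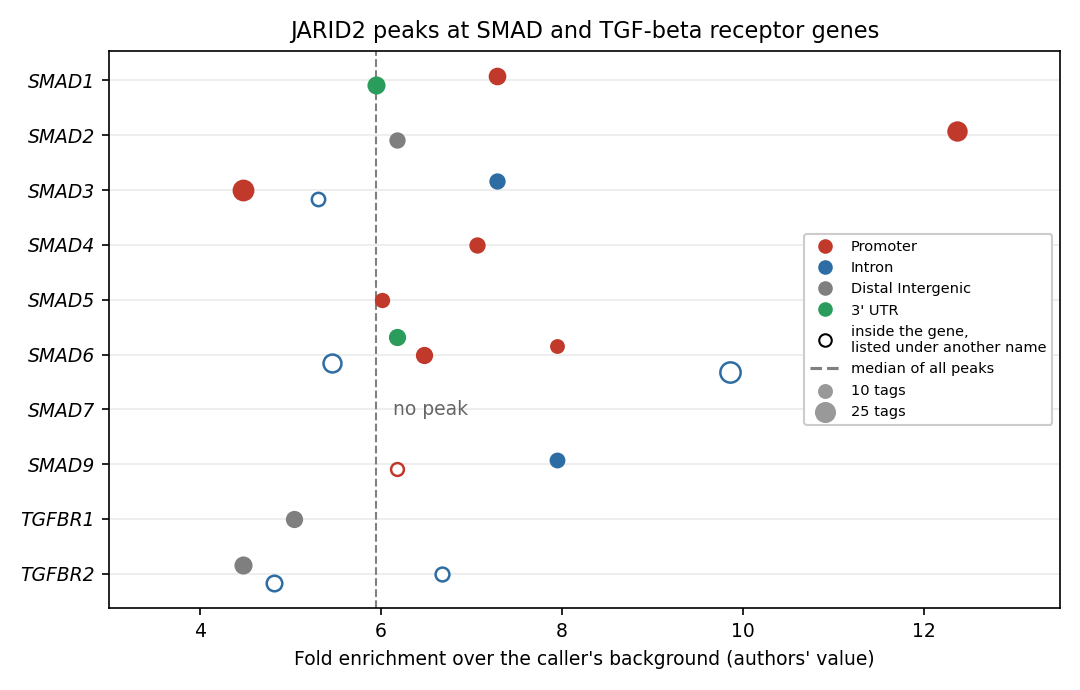
Each point is a JARID2 peak, with the authors' fold enrichment on the x axis, 1 row per gene, colour for the annotation class and area growing with tags; open points lie inside the gene but carry another name in the list, and the dashed line is the median of all 67071 peaks (5.95). The SMAD2 promoter peak at 12.37 stands to the right of all others, an open SMAD6 intron peak follows at 9.86, and SMAD7 has no peak.

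SMAD2, which carries the TGF-beta and activin signal, had the strongest peak of the set. It lay on chromosome 18 (hg19, 45457373 to 45458184) over the TSS of the minus-strand gene (ENSG00000175387), with its summit 250 bp upstream of that start. The peak held 22 tags (13.8 to 33.3) at 12.37-fold with an FDR of 27.61%. Its fold enrichment was above that of 99.6% of all peaks and 98.7% of the 13764 promoter peaks, and its tag count was above that of 77.6% of promoter peaks. A weaker SMAD2 peak lay in distal intergenic sequence 15703 bp upstream of the TSS, with 12 tags (6.20 to 21.0), 6.18-fold and an FDR of 44.61%. The value 6.18 was given to 7555 peaks in the list.

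SMAD3, which shares the receptors of SMAD2, also had a tag count above that of most promoter peaks (84.6%), but a low fold enrichment. Its promoter peak (ENSG00000166949, chromosome 15, 67419794 to 67420743) held 26 tags (17.0 to 38.1), the most of the 14 peaks. At 4.48-fold it had, with TGFBR2, the lowest fold enrichment of the set, above that of 10.4% of promoter peaks. Its FDR was 37.09%, and its summit lay 14 bp downstream of the listed start. That start lies inside an intron of another SMAD3 transcript: the peaks on both sides of it are annotated to intron 1 of 3 of that transcript. The upstream peak, at 67407623 to 67408078, had 12 tags, 7.28-fold and an FDR of 44.51%. The downstream peak, at 67444734 to 67445214, had 11 tags, 5.30-fold and an FDR of 44.30%, and the list names it for RP11-342M21.2. No SMAD3 peak was listed at a start upstream of that intron.

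The SMADs of the BMP branch had 4 peaks at 3 genes, with 10 to 16 tags each against a median of 12 over all peaks. SMAD1 (ENSG00000170365) had a peak on chromosome 4 (146408537 to 146409027) with 15 tags (8.40 to 24.7), 7.28-fold and an FDR of 34.42%. It began 2873 bp downstream of the listed TSS, so it is a promoter peak by the 3 kb reach and lies inside the transcribed region. A further SMAD1 peak at 146478805 to 146479524 was annotated to a 3′ UTR, with 16 tags, 5.94-fold and an FDR of 44.24%. It lay beyond the end of the listed SMAD1 transcripts. SMAD5 (ENSG00000113658) had 1 peak on chromosome 5 (135497089 to 135497455), 415 bp downstream of a listed TSS. With 10 tags (4.80 to 18.4), 6.01-fold and an FDR of 48.04%, it was close to the weakest peaks of the list, above 1.18% of them by score. SMAD9 (ENSG00000120693) had no promoter peak. Its only peak, on chromosome 13 (37477281 to 37477621), had 11 tags, 7.95-fold and an FDR of 34.18%. It was listed 17093 bp inside this minus-strand gene, nearer the start than the end of the listed transcript of 75408 bp. The annotation calls it intron 5 of 5, and the sources used here do not say from which end introns are counted.

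SMAD4, the shared partner and a frequently deleted tumour suppressor in pancreatic cancer, had a single peak. It overlapped a listed TSS on chromosome 18 (ENSG00000141646, 48556221 to 48556822), with the summit 78 bp downstream of the start. The peak held 12 tags (6.20 to 21.0) at 7.06-fold, and its FDR of 47.03% was near the upper end of the list. Its fold enrichment was above that of 75.5% of promoter peaks, but 5706 peaks carried the same value of 7.06.

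The inhibitory SMADs differed in their listings, with 3 peaks at SMAD6 and 0 at SMAD7. SMAD6 (ENSG00000137834, chromosome 15) had promoter peaks at different listed starts. The peak at 66993179 to 66993454 lay 1112 bp upstream of the first listed start and held 9 tags (4.12 to 17.1), the lowest number in the whole list, at 7.95-fold with an FDR of 37.19%. The peak at 67003589 to 67004181 overlapped a start further downstream, with its summit 60 bp upstream of it, and held 14 tags (7.65 to 23.5) at 6.47-fold with an FDR of 41.39%. The peak at 66977260 to 66977776, with 14 tags, 6.18-fold and an FDR of 33.70%, was annotated to a 3′ UTR. It lies 16790 bp upstream of the SMAD6 start, outside the listed SMAD6 transcripts, and the list does not say whose UTR it is. SMAD7, the inhibitor that recruits ubiquitin ligases to the active receptor, had no peak under its symbol and no transcript in the list.

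Neither TGF-beta receptor gene had a promoter peak, but TGFBR2 missed the class by a short distance. Its peak (ENSG00000163513, chromosome 3, 30644375 to 30644933) ended 3061 bp upstream of the listed TSS, whereas the SMAD1 peak, the farthest promoter peak of the set, began at 2873 bp. The TGFBR2 peak held 16 tags (9.15 to 26) at 4.48-fold with an FDR of 45.56%. The TGFBR1 peak (ENSG00000106799, chromosome 9, 101843648 to 101844149) was distal intergenic, 22171 bp upstream of the listed TSS, with 14 tags (7.65 to 23.5), 5.04-fold and an FDR of 48.05%. Both receptor peaks were below the median fold enrichment of all peaks.

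**Figure D2:**
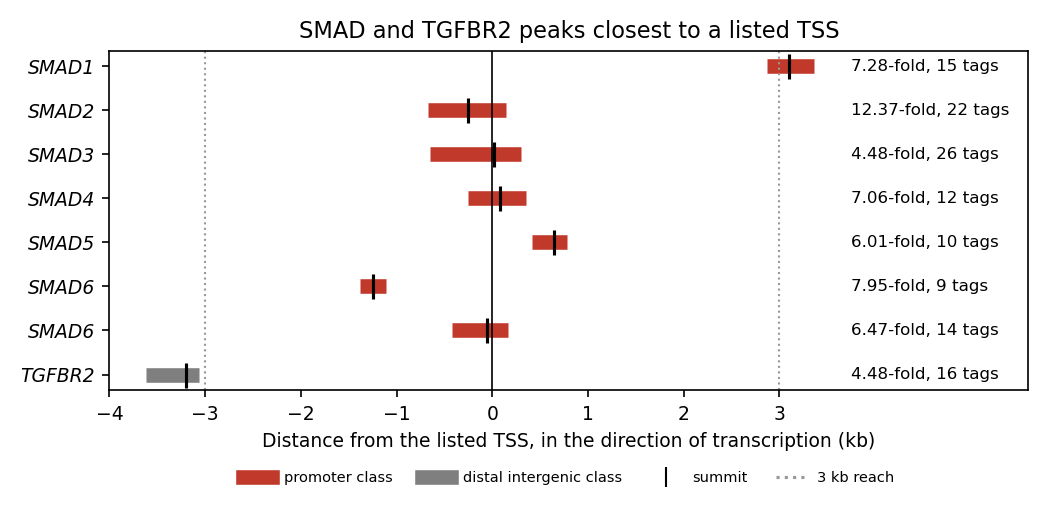
Bars are the 8 peaks that begin or end within about 3 kb of a listed TSS, drawn to scale on an x axis in kb from that TSS in the direction of transcription, with the summit as a black tick and the promoter reach of 3 kb dotted. The SMAD2, SMAD3, SMAD4 and downstream SMAD6 peaks cross the start, and the TGFBR2 peak stops just outside the dotted line.

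At the 4 peaks that overlapped a listed start (SMAD2, SMAD3, SMAD4 and the downstream SMAD6 peak), 3 summits lay within 200 bp of it, SMAD2 being the exception at 250 bp. By fold enrichment the highest promoter peaks ranked SMAD2 (12.37), SMAD6 (7.95), SMAD1 (7.28), SMAD4 (7.06), SMAD5 (6.01) and SMAD3 (4.48). By tags the order was SMAD3, SMAD2, SMAD1, then SMAD6 with 14 at its downstream peak, SMAD4 and SMAD5. Peak width differed too, from 276 bp at the upstream SMAD6 peak to 950 bp at SMAD3. Per kb of peak the order was upstream SMAD6 (32.6 tags), SMAD1 (30.5), SMAD3 (27.4), SMAD5 (27.2), SMAD2 (27.1), downstream SMAD6 (23.6) and SMAD4 (19.9). The counting intervals of the tags overlap among all 7 promoter peaks, though those of SMAD3 (17.0 to 38.1) and the upstream SMAD6 peak (4.12 to 17.1) barely do. Overlap of intervals alone does not settle whether 2 counts differ, and the orders by tags and by tags per kb were not tested. Taking the highest promoter peak of each gene, the 6 genes had a median of 7.17-fold, against 6.18-fold over the 6639 protein-coding genes with a promoter peak.

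**Figure D3:**
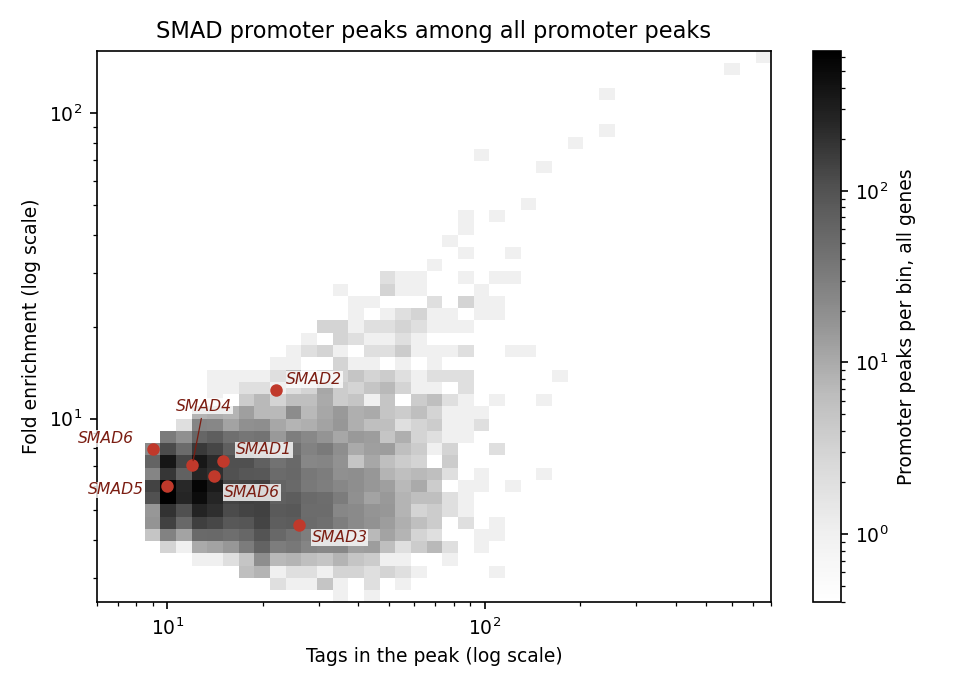
Red points are the 7 promoter peaks of the SMAD genes on log axes of tags and fold enrichment, over a grey density of all 13764 promoter peaks. SMAD2 (22 tags, 12.37-fold) sits near the upper edge of the cloud for its tag count and SMAD3 (26 tags, 4.48-fold) in its lower part.

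A stronger peak lies inside SMAD6 than any listed under its name. The authors' symbol is that of the nearest transcript start, so peaks deep in an intron can carry the name of a neighbour. A peak on chromosome 15 (67058961 to 67059734) is annotated to intron 3 of 3 of SMAD6 but named for RP11-622C24.1, whose start is 41008 bp away. It held 29 tags (19.4 to 41.6) at 9.86-fold with an FDR of 3.25% and a −log10 p of 10.06, where the highest value among the 14 peaks was 5.80 at SMAD2. Its fold enrichment was above that of 99.5% of the 24930 intron peaks. Immediately upstream in the same intron, a peak at 67057668 to 67058630 held 22 tags (13.8 to 33.3) at 5.46-fold with an FDR of 45.58%.

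TGFBR2 also carried peaks under other names. The peak in its intron 1 of 6 (chromosome 3, 30662413 to 30662759) had 12 tags, 6.67-fold and an FDR of 41.49% and was named for AC096921.2. The peak in its intron 5 of 6 (30727723 to 30728277) had 16 tags, 4.82-fold and an FDR of 46.54% and was named for RP11-1024P17.1. Counting each peak also for the gene whose intron or exon it is annotated to, a choice made after the data were seen, raised the set to 19 peaks. Only peaks annotated to an intron or exon can be added this way, so the promoter share could only fall. It became 36.8% (16.3 to 61.6), an interval that includes the 20.5% of all peaks. That 20.5% was not recounted this way, so the shares are not alike. By host gene, 1 of the 10 genes, SMAD6, had a peak at an FDR of at most 5%. The share of protein-coding genes counted the same way was 3.08%. Genes with peaks at this limit outside promoters only, as at SMAD6, made up 0.614% of protein-coding genes.

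RefSeq promoter sequences show how the start regions of these genes differ in CG dinucleotides, since PRC2 in embryonic stem cells is known to occupy CG-rich promoters. The windows run from 250 bases before to 50 after a RefSeq TSS on GRCh38.p14, a different build from the peaks, and are not placed under the peaks. The window richest in CG is shown 5′ to 3′ for SMAD2, the strongest promoter peak, SMAD6, the gene with the most peaks, and SMAD7, which had no peak, with each CG in capitals.

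SMAD2 (chr18:47930610-47930909, minus strand): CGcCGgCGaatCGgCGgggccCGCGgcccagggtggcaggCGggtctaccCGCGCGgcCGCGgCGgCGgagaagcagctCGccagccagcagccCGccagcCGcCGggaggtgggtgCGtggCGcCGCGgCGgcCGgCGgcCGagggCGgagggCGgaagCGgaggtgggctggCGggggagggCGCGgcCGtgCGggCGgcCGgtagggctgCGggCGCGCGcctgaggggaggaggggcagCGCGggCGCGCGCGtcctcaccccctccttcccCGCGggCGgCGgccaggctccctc

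SMAD6 (chr15:66701986-66702285, plus strand): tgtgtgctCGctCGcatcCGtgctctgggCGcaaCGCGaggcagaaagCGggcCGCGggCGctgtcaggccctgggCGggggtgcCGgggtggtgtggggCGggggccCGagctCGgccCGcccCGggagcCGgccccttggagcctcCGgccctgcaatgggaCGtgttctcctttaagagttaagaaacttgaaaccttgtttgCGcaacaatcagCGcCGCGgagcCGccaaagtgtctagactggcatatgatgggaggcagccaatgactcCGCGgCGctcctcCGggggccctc

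SMAD7 (chr18:48949284-48949583, minus strand): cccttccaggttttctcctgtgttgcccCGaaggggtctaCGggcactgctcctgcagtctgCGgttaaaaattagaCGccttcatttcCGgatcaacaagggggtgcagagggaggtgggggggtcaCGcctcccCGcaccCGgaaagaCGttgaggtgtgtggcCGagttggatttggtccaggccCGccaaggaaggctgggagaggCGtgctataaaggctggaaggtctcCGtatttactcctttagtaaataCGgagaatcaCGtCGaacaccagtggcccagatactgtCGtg

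The SMAD2 window held 51 CG dinucleotides, more than 99.0% of the 35116 windows, at 84.0% G and C. The SMAD6 window held 29 and the SMAD7 window 17, which was the lowest among the richest windows of the 10 genes. The order of the medians depended on the promoter limit. The richest windows of the 5 genes whose peak lay within 1 kb had a median of 36.0 CG, those of the other 5 genes 40. With the limit at 3 kb, the medians were 38.0 for the 6 genes with a promoter peak and 35.0 for the 4 without. Those 4 genes were spread widely, with 50 CG at SMAD9, 47 at TGFBR1, 23 at TGFBR2 and 17 at SMAD7. At both limits SMAD3 counts among the genes with a peak through the 44 CG of its most upstream window. Its other windows held 5 or 6 CG, and its promoter peak lay at a start inside an intron of another SMAD3 transcript. SMAD6 has 1 window but had promoter peaks at different listed starts. For no gene was the window matched to the listed start of its peak. Over 15843 protein-coding genes with a window, the medians were 29.0 for genes with a peak within 1 kb and 22.0 for genes without.

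The SMAD-binding palindrome GTCTAGAC, which reads alike on both strands, occurred in 1 of the 29 windows of the 10 genes and in 0.202% of all windows. That window is the SMAD6 one above, where it fills bases 239 to 246, counted from the 5′ end, and lies 4 bases before the start. The shorter SMAD motif CAGACA, searched on both strands, occurred in 3 of the 29 windows, at SMAD3 and TGFBR1, and in 16.9% of all windows. No window of the 10 genes held both motifs. These matches are letters in a window and say nothing of binding.

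SMAD2 and SMAD4 lie on chromosome 18, in a stretch where few peaks were listed at all. RefSeq GRCh38.p14 places SMAD7 between them, while the peak list (hg19) gives it no position. Between the listed transcripts of SMAD2 and SMAD4, 3.10 Mb apart, there were 13 peaks, or 4.19 per Mb, against 23.4 per Mb over the autosomes. The highest of those 13 was 7.95-fold, and their lowest FDR was 37.92%. Within 500 kb of its TSS, SMAD2 had 3 peaks and SMAD4 had 3, while the other 7 genes with a listed TSS had 18 to 31. The median over the 11286 protein-coding genes with a peak was 27.0, and 28 of them (0.248%) had 3 or fewer, 12 of these on chromosome 18.

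The fall in peak number along chromosome 18 came close to SMAD2. From 40 to 45 Mb there were 107 peaks, or 21.4 per Mb, and from 45 to 50 Mb, which holds SMAD2 and SMAD4, there were 17, or 3.40 per Mb. From 45 Mb to the last peak the chromosome had 119 peaks, 3.60 per Mb, against 916 peaks and 20.4 per Mb before 45 Mb, a limit chosen after the counts were seen. Peaks past 45 Mb had a median of 10.0 tags against 12 before it, and the median fold enrichment was 6.18 on both sides. The SMAD2 promoter peak was the highest of the 119 by fold enrichment and ranked 5 of the 1035 peaks of the chromosome, and the SMAD4 peak ranked 15 of the 119. Copy number was not measured in the data used here, and its part in the density was not tested.

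**Figure D4:**
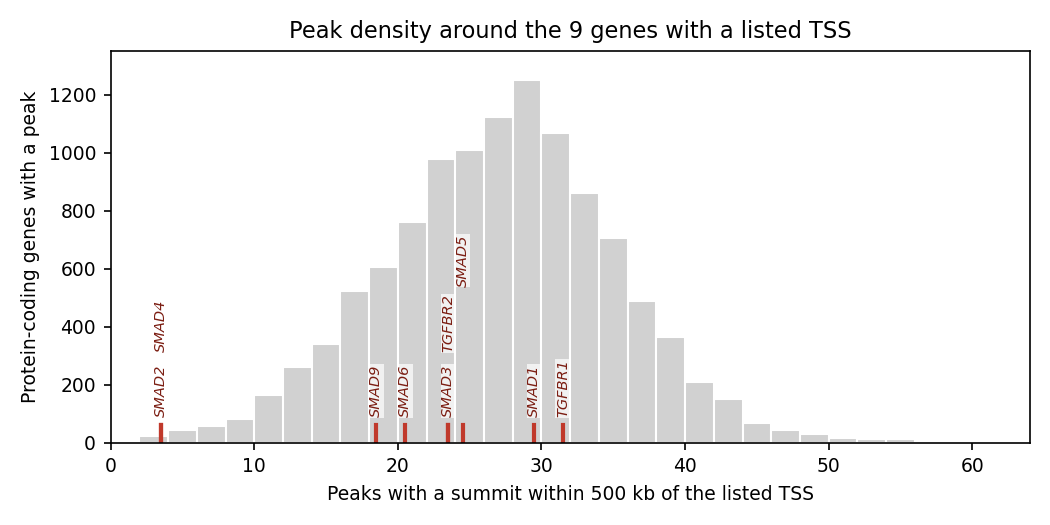
The x axis gives the number of peaks with a summit within 500 kb of the listed TSS and the y axis the number of protein-coding genes with a peak, in grey bars; red ticks mark the 9 SMAD and receptor genes with a listed TSS. SMAD2 and SMAD4, with 3 each, stand at the low edge, and the other 7 lie between 18 and 31.

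SMAD6 and SMAD3 are neighbours on chromosome 15, with 344 kb between their listed transcripts. That gap held 5 peaks, among them the upstream SMAD3 intron peak given above, or 14.5 per Mb against 15.5 over the whole chromosome, the highest at 7.28-fold. The peaks under each symbol, wherever they lie, were also divided by the span of the gene's listed transcripts. This gave the 9 genes a median of 3.07 peaks per 100 kb, from 1.14 at TGFBR2 to 8.44 at SMAD5. Protein-coding genes with a peak had a median of 7.08. It is not a density inside the span: the TGFBR1 and TGFBR2 peaks counted lie upstream of their spans, and the TGFBR2 intron peaks under other names are not counted. Listed spans cover only the transcripts nearest to a peak and can be shorter than the gene, as at SMAD5 with 11.8 kb, so the densities of such genes are too high.

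Across the rest of the pathway, 31 of 88 genes in 6 lists had a promoter peak (35.2%, against 60% of the SMAD and receptor genes and 33.1% of protein-coding genes). LTBP2 and SKIL stand in 2 lists each and were counted once. The lists were drawn up with earlier results of these data known. Ligands had promoter peaks at 5 of 29 genes, the lowest share. TGFB1, the ligand named in the pathway, had 27 tags and 8.96-fold over its TSS with an FDR of 7.19%, and BMP7 had 10 tags and 7.70-fold with an FDR of 46.90%. The other receptors of the family had them at 6 of 10 genes, the same share as the SMAD and receptor genes. The type II receptor ACVR2B led with 8.83-fold, 16 tags and an FDR of 31.13%, and the activin type I receptor ACVR1B followed with 8.08-fold, 12 tags and 38.65%.

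Co-receptors had promoter peaks at 3 of 6 genes. TGFBR3 (betaglycan, which presents ligand to TGFBR2) had 7.42-fold with 15 tags and an FDR of 45.57%. CRIPTO, a Nodal co-receptor, had 6.55-fold with 11 tags and an FDR of 44.63%. Extracellular binders and latency proteins had them at 8 of 14 genes. Among these LTBP4, which holds latent TGF-beta in the matrix, had the highest promoter fold enrichment of the pathway lists, 15.88 with 31 tags (21.1 to 44.0) and an FDR of 1.69%, over a TSS on chromosome 19 (41102542 to 41103308). Intracellular regulators had promoter peaks at 4 of 15 genes. HGS, an endosomal sorting protein, had 7.66-fold with 28 tags and an FDR of 14.24%. TRIM33, a ubiquitin ligase that acts on SMAD4, had 7.13-fold with 21 tags and an FDR of 23.66%. Target genes had promoter peaks at 5 of 16, and the cell cycle inhibitor gene CDKN1A reached an FDR of 3.16% with 110 tags (90.4 to 133) at 4.66-fold. LTBP4 and CDKN1A were the 2 of 88 genes (2.27%) with a promoter peak at an FDR of at most 5%, a share near the 2.47% of all protein-coding genes. The CDKN1A tag interval lay above that of every promoter peak in the SMAD set, while the LTBP4 interval overlapped that of SMAD3. These are raw tags: the CDKN1A peak was 2598 bp wide, against 276 to 950 bp for the SMAD promoter peaks.

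**Figure D5:**
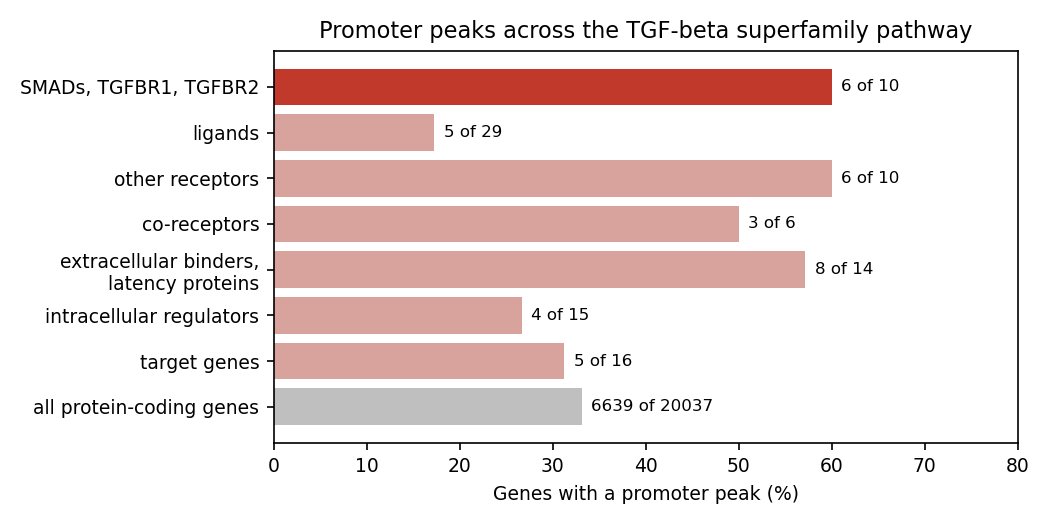
Bars give the percent of genes with a JARID2 promoter peak within 3 kb of a TSS for the SMAD and receptor genes (6 of 10), the 6 lists of other pathway genes and all protein-coding genes (6639 of 20037). The ligand bar, 5 of 29, is the shortest, and the bar of the other receptors equals that of the SMAD and receptor genes.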

How the data were processed

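The tools named per the submitters' processing notes are ChIPseeker, MACS2, MACS, Bowtie 0.12.8 and bcl2fastq, with the build hg19. Caller version, thresholds and the use of the input: not given in the sources used here. Per the file headers, each peak has a raw tag count, a fold enrichment (a ratio on a linear scale) and an FDR in percent, all made by the authors. The remaining deposited score, with an unreadable header, was read as −log10 p times 10, because it starts at 30 and stands where the caller writes that value.

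Peaks were taken by the authors' symbol. Symbols were matched to 20037 protein-coding genes of RefSeq GRCh38.p14 by symbol or unique synonym, whose coordinates served for the promoter windows and the order of genes on a chromosome, and were not compared with peak positions. Summits were placed from the file's offset. The genes, lists and alternatives were chosen with earlier results of these data known. All 10 genes are named, and of each pathway list the genes with a promoter peak at an FDR of at most 5%, otherwise the 2 with the largest promoter fold enrichment. With 1 ChIP library no test was run. Counting steps were tested on simulated data. Python 3.11.15, pandas 2.3.3 and scipy 1.17.1 were used.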

Additional observations from a re-analysis of the deposited data

How the results depend on the processing

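The counts at the authors' threshold (9 genes with a peak, 6 with a promoter peak, 5 within 1 kb, 14 peaks) fell to 0 at an FDR of at most 5% and at most 20%, and to 2, 1, 1 and 2 at −log10 p of at least 5, where the median fold enrichment of the remaining peaks was 9.27. In the top 25% by fold enrichment 2 genes kept a peak within 1 kb and 6 peaks were left. Pathway genes with a promoter peak numbered 31, against 2 at an FDR of at most 5%, 9 at most 20%, 12 at −log10 p of at least 5, 13 in the top 25% and 16 within 1 kb. Fewer peaks enter each of these settings. Giving peaks also to the host gene, an alternative added after seeing the data, put 1 gene at an FDR of at most 5% against 0. Ranked by tags, the leading SMAD6 promoter peak had 6.47-fold. Of 58 alternative values, 36 stayed within 1.5 times the count or within the interval of the value. Among them were merging, the transcript span (8 genes with a peak, 7 with a promoter peak) and the background of genes with a peak (66.7% of the 9 listed genes with a promoter peak against 58.8%). Part of these 36 could not move and are no sign of stability. SMAD1 to SMAD5 have 1 promoter peak each, so ranking by tags or score picks the same peak. A change of background leaves the count of 6 genes as it is. No promoter share or median could be computed at FDR limits of 5% or 20%, with no peak left. No paired analysis was possible because the study has 1 ChIP library. Peaks of 9 to 26 tags limit every value, as their counting intervals span a wide range.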

Other observations

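Counting peaks by symbol or host gene, 6 of the 88 other pathway genes (6.82%) had a peak at an FDR of at most 5%, against 3.08% of protein-coding genes. At 4 of them (4.55%) such peaks lay outside promoters only, against 0.614% of protein-coding genes. These 4 genes were named after their values were seen, and the shares are a description with no test. BMP4, a ligand that signals through SMAD1, SMAD5 and SMAD9, had a distal intergenic peak 5614 bp upstream of its TSS on chromosome 14 (54429881 to 54431093) with 63 tags (48.4 to 80.6), 6.58-fold and an FDR of 0.27%. PMEPA1, a SMAD-induced gene whose product restrains the pathway, had one 7986 bp upstream on chromosome 20 (56291973 to 56294578) with 80 tags (63.4 to 99.6), 6.01-fold and an FDR of 2.79%. The BMP7 peak at this limit lay 29145 bp from its listed TSS with 37 tags, 7.85-fold and 3.91%, and the BMP10 peak 17799 bp upstream with 59 tags, 5.46-fold and 4.40%. These peaks were 1213 to 2606 bp wide, against 276 to 950 bp for the 14 peaks of the SMAD and receptor genes. They were picked by an FDR that none of the 14 reached, so the widths are not a like comparison. The SMAD6 intron peak with an FDR of 3.25% was 774 bp wide.

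A peak inside the listed SMAD9 span (chromosome 13, 37425682 to 37426075, 10 tags, 6.18-fold, FDR 43.47%) is named for SMAD9-AS1. It is listed 1892 bp upstream of the SMAD9-AS1 TSS. Despite that name, the list puts the SMAD9-AS1 transcript on the minus strand, the same strand as SMAD9. The symbol SMAD1 is also listed as a synonym of GARS, a tRNA ligase gene with 2 peaks on chromosome 7, and those were not counted for SMAD1.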
